A study of Mus musculus with 9 samples.

Results

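The MHC class I pathway and the immunoproteasome were followed here through 10 genes of mouse colon, taken by symbol from the 21720 genes of the deposited count table. All 10 were present and all passed the filter on low counts that left 16160 genes for testing. Colon RNA of female wild-type C57BL/6 J mice was sequenced in 3 groups of 3 libraries each. The Atorvastatin group was gavaged with 10 mg/kg of atorvastatin, a statin, as 1 dose of 0.2 mL on each of 5 days, the first on day 3 and the last on day 7. The Model group was gavaged with 5% dextran sulfate sodium (DSS), on 7 days; DSS injures the colonic epithelium and serves to model ulcerative colitis. The Normal group received 0.5% sodium carboxymethyl cellulose, the vehicle, over 7 days. Whether the Atorvastatin mice were given DSS too is not written in the labels, and the age of the mice is not given in the sources used here. Nor do they state whether libraries are from different mice, so the p-values refer to variation among these libraries, which may be technical.

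MHC class I molecules display peptides from inside the cell to CD8 T cells and to receptors of natural killer cells. Each consists of a polymorphic heavy chain, in this strain H2-K1 or H2-D1, paired with the invariant light chain B2m. Peptides are cut by the proteasome, carried into the endoplasmic reticulum by the transporter Tap1 and Tap2, and loaded with the help of tapasin (Tapbp). Interferon gamma induces Psmb8, Psmb9 and Psmb10, which take the place of the constitutive catalytic subunits Psmb5, Psmb6 and Psmb7 in newly assembled particles, the immunoproteasome. Nlrc5 is the transactivator of class I genes. It has no DNA-binding specificity of its own and is recruited by factors bound to a conserved promoter module.

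Promoter sequences are shown because Nlrc5 is recruited to class I genes through this module. That all 10 genes share it is not assumed. RefSeq promoter windows (GRCm38.p6, 250 bases before the annotated start) were matched for 8 of the 10 genes, all except Tap2 and Nlrc5. They were searched on both strands for an IRF core (AANNGAAA), the NF-kB consensus, a CREB-type core of the X2 box (TGACG) and a Y box (CCAAT), motifs chosen from textbook knowledge after the windows had been read. Capitals mark these matches. The first 3 sequences are the 180 bases before the annotated start, read 5′ to 3′ on the gene's own strand. For H2-K1 the start used, and the stretch shown, lie inside the gene's annotated GRCm38 interval, 33996012 to 34000619. H2-K1 lies at chr17:34000348-34000527 on the minus strand, H2-D1 at chr17:35262914-35263093 on the plus strand and B2m at chr2:122147507-122147686 on the plus strand. The last is the stretch of 225 bases between the divergent starts of Psmb9 and Tap1, chr17:34187331-34187555, on the strand of Tap1.
H2-K1: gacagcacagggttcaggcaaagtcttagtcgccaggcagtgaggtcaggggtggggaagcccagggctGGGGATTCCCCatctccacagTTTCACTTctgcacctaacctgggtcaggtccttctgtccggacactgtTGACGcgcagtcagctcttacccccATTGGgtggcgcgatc
H2-D1: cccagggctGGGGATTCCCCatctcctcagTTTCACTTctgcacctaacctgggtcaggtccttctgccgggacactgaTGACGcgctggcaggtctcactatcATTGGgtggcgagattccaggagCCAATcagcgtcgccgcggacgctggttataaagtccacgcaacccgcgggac
B2m: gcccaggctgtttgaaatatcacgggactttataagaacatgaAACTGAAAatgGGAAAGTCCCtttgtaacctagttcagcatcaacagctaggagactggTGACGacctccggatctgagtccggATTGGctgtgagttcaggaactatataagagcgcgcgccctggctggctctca
Tap1 and Psmb9: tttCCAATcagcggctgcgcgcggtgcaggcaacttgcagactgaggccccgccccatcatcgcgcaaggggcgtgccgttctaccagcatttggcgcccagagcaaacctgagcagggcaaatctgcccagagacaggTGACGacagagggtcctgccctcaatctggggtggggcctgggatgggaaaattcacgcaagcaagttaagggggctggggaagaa

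H2-K1, H2-D1 and B2m each held all 4 motifs in the 250-base window. That combination was present in 23 of 32851 windows (0.0700%). Because the motifs were chosen after the windows had been read, this share is no test of rarity. The single motifs were common, with an IRF core in 21.3%, the NF-kB consensus in 5.00%, TGACG in 17.8% and CCAAT in 33.8% of windows. The NF-kB matches of H2-K1 and of H2-D1 are 2 overlapping frames of a single stretch. The interval shared by Tap1 and Psmb9 held TGACG and CCAAT, and neither an IRF core nor an NF-kB consensus. The Tapbp window held CCAAT in 2 places, and the Psmb8 and Psmb10 windows held none of the 4 motifs. The interferon gamma-activated site TTCNNNGAA, searched as well and not capitalised, was present in the Psmb8 window and in 7.02% of all windows. A match describes letters only and shows no binding.

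Total estimated counts were 77741597 to 84017551 in Atorvastatin, 74945894 to 91737502 in Model and 72584333 to 80694206 in Normal libraries. All 10 colon epithelial markers were detected, with a summed level of 22762 to 31421 CPM, counts scaled to a common library size, in Atorvastatin, 23749 to 34755 CPM in Model and 28744 to 41754 CPM in Normal. Markers of 2 other organs stood out in the Model group. The 9 pancreatic acinar genes held 6.27% of the counts of Model 2 and 2.66% of those of Model 3, and at most 0.239% in the other libraries, and the 7 small intestinal genes summed to 425 CPM in Model 3 and at most 48.9 CPM elsewhere. For the contrasts of Model, the median of the 10 genes is therefore also given without these libraries. By edgeR's quasi-likelihood test, with p-values adjusted after Benjamini and Hochberg across the 16160 genes and a limit of 0.05, 4.37% of genes were higher and 1.1% lower in Model against Normal.

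The contrast of Model with Normal compares mice given DSS with mice given the vehicle. The labels give no vehicle for the Model mice, so DSS and a lack of vehicle cannot be told apart if they received none. Every one of the 10 genes had its lowest Model library above its highest Normal library, as did 14% of all tested genes (11.7% lay below). Fitted folds lay between 1.63 for Nlrc5 and 2.38 for Tap1, with a median log2 fold change of 0.87 against -9e-04 over all tested genes. None of the 10 passed edgeR's threshold, with adjusted p-values from 0.0566 for Psmb8 to 0.241 for Nlrc5. At an unadjusted p under 0.05 edgeR's test had 9 of the 10 higher, against 13.1% of all tested genes higher and 7.87% lower. DESeq2 called 7 of them, all except H2-K1, H2-D1 and Nlrc5, and 8.34% of all tested genes higher. Limma-voom called 0 of them and 3.43% of all tested genes higher. The median was 0.83 without Model 2, 0.92 without Model 3 and 0.95 without both.

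**Figure D1:**
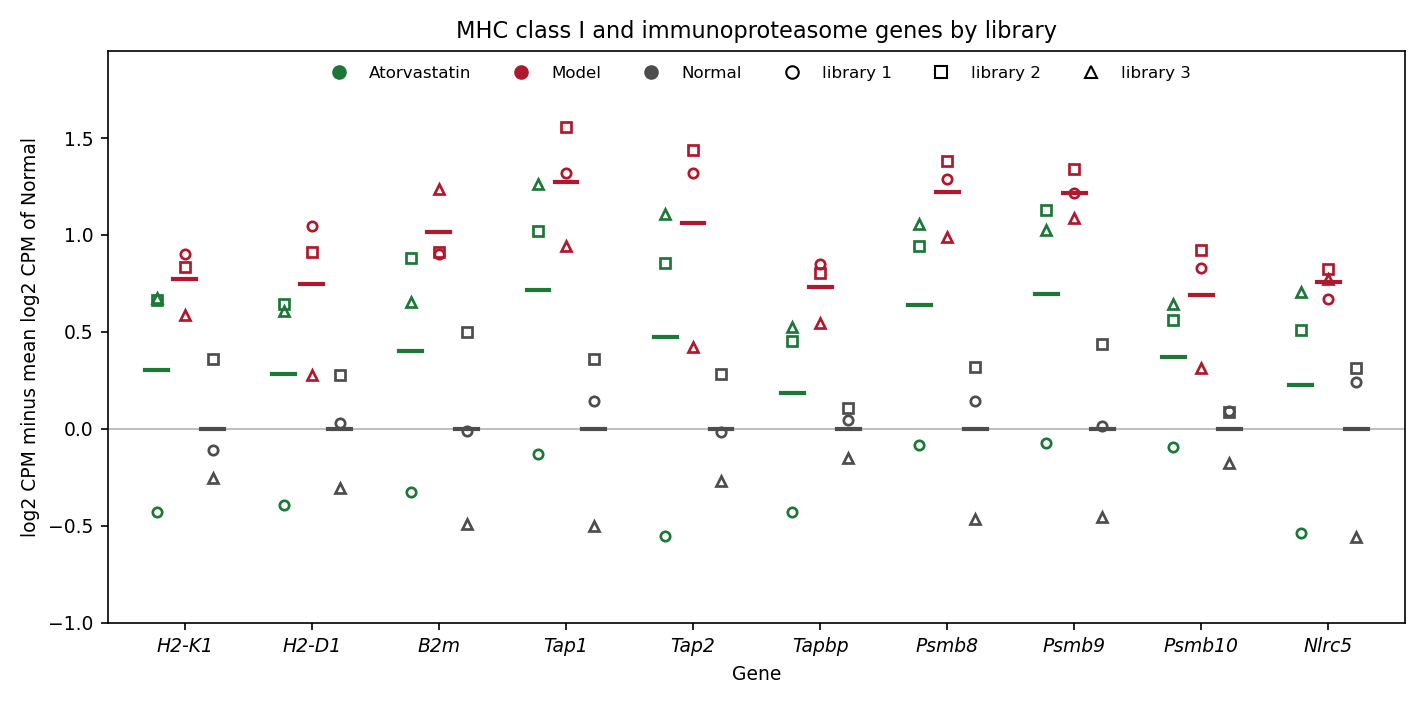
Each point is 1 library, drawn as its log2 CPM minus the mean log2 CPM of the 3 Normal libraries for that gene, with a bar at each group mean. All Model points lie above all Normal points for each gene, and Atorvastatin library 1 lies apart from libraries 2 and 3, below the Normal mean for every gene.

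H2-K1, a classical heavy chain gene on chromosome 17 at 34214991 to 34219321, had 864, 1842 and 1857 CPM in Atorvastatin 1 to 3, 2175, 2076 and 1748 CPM in Model 1 to 3, and 1079, 1493 and 976 CPM in Normal 1 to 3. H2-D1, the other classical heavy chain, at 35481706 to 35486475 on the same chromosome, had 1105, 2268 and 2215 CPM in Atorvastatin, 3006, 2738 and 1764 CPM in Model, and 1481, 1761 and 1175 CPM in Normal. Model 3 exceeded the highest Normal library by 0.185% for H2-D1, and the groups overlapped for this gene under 3 other ways of scaling. B2m, the light chain gene on chromosome 2 at 121978167 to 121983564, had 600, 1383 and 1182 CPM in Atorvastatin, 1403, 1413 and 1772 CPM in Model, and 746, 1062 and 536 CPM in Normal. For B2m, Model 3 was the highest of all libraries, while the same library was the lowest of its group for both heavy chains. The log2 ratio of H2-D1 to B2m was 0.88, 0.71 and 0.91 in Atorvastatin, 1.10, 0.95 and -0.01 in Model, and 0.99, 0.73 and 1.13 in Normal, so Model 3 stood below the other 8 libraries. Model exceeded Normal by a log2 fold change of 0.76 ± 0.30 for H2-K1 (SE; edgeR adjusted p = 0.188), 0.77 ± 0.32 for H2-D1 (adjusted p = 0.205) and 0.97 ± 0.34 for B2m (adjusted p = 0.138).

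Counts of the heavy chains carry some uncertainty from sequence shared with other genes. Of the stretches of 50 bases in the longest annotated transcript of H2-K1, 8.11% also occurred in transcripts of other genes, most often H2-D1. The share was 14.3% for H2-D1, spread over 103 other genes and most often with H2-Q1 (7.40%). It was 2.0% for Tapbp, 0.647% for Tap1, 0.737% for Tap2 and 0 for B2m, Psmb8, Psmb9, Psmb10 and Nlrc5. The annotated interval of B2m lies wholly inside that of Patl2, those of Tap1 and Psmb9 overlap by 212 bases and those of Tapbp and Zbtb22 by 3422 bases. Whether counting used strand is not given in the sources used here, so reads from such neighbours may not be told apart.

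Tap1, an ATP-driven subunit of the peptide transporter, on chromosome 17 at 34406527 to 34416199, had 119, 265 and 313 CPM in Atorvastatin, 325, 385 and 251 CPM in Model, and 144, 168 and 92.2 CPM in Normal. Its log2 fold change in Model against Normal, 1.25 ± 0.36, had the largest size of the 10 (adjusted p = 0.0799). The lowest Model library was 49.7% above the highest Normal library for Tap1. Tap2, its partner in the transporter, at 34422501 to 34435295, had 46.0 to 145 CPM in Atorvastatin, 90.3 to 183 CPM in Model and 56.0 to 81.8 CPM in Normal, and a log2 fold change of 1.11 ± 0.40 in Model against Normal (adjusted p = 0.156). For Tap2 the Model libraries differed among themselves 2.02-fold, more than for any other of the 10 genes. Tapbp, which bridges the transporter and the empty class I molecule, at 34134873 to 34148266, had 251 to 487 CPM in Atorvastatin, 494 to 609 CPM in Model and 304 to 364 CPM in Normal. Model exceeded Normal by 0.73 ± 0.24 on the log2 scale (adjusted p = 0.118).

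The immunoproteasome genes included those with the smallest p-values. Psmb8, the chymotrypsin-like subunit, on chromosome 17 at 34416695 to 34420428, had 119, 242 and 262 CPM in Atorvastatin, 307, 328 and 250 CPM in Model, and 139, 157 and 91.3 CPM in Normal. The lowest Model library was 58.7% above the highest Normal library, the widest gap among the 10 genes, and the log2 fold change was 1.19 ± 0.30 (adjusted p = 0.0566). Psmb9, which replaces Psmb6 and is transcribed away from Tap1, at 34400961 to 34406738, had 57.6, 132 and 123 CPM in Atorvastatin, 140, 153 and 129 CPM in Model, and 61.2, 82.0 and 44.1 CPM in Normal. Its log2 fold change was 1.17 ± 0.31 (adjusted p = 0.0657). Psmb10, the trypsin-like subunit, encoded outside the MHC on chromosome 8 at 106662371 to 106665076, had 124 to 208 CPM in Atorvastatin, 165 to 252 CPM in Model and 118 to 141 CPM in Normal. Its log2 difference was 0.71 ± 0.22 (adjusted p = 0.103). Psmb8 and Psmb9 passed when only the Model and Normal libraries were fitted (adjusted p = 0.0417 and 0.0429), and Tap1, Tapbp, Psmb8 and Psmb9 passed without Atorvastatin 1 (adjusted p = 0.0340, 0.0361, 0.0244 and 0.0249). Psmb10 passed without Model 3 (adjusted p = 0.0495). In 17 of 21 alternative fits none of the 10 genes was called higher. Fitting only Model and Normal put 398 of 15826 tested genes higher. Leaving out 1 library put 142 to 861 of all genes higher.

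Nlrc5, the class I transactivator, also on chromosome 8, at 95161019 to 95253900, had 82.4, 170 and 195 CPM in Atorvastatin, 190, 212 and 204 CPM in Model, and 141, 149 and 81.3 CPM in Normal. The Model libraries lay within 1.11-fold of each other, while the Normal libraries spread 1.83-fold, with Normal 3 lowest. The log2 fold change of Nlrc5 in Model against Normal was 0.71 ± 0.32 (adjusted p = 0.241, unadjusted p = 0.0511), and 0.47 without Normal 3.

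None of the 3 constitutive subunits that these replace passed in Model against Normal. Psmb5, the counterpart of Psmb8, had 71.3, 68.1 and 71.2 CPM in Atorvastatin, 64.9, 66.2 and 64.9 CPM in Model, and 70.4, 60.0 and 72.5 CPM in Normal. Log2 fold changes in Model against Normal were -0.05 ± 0.10 for Psmb5 (adjusted p = 0.829), 0.06 ± 0.10 for Psmb6 (adjusted p = 0.792) and 0.02 ± 0.14 for Psmb7 (adjusted p = 0.957). A ratio of both genes within a library is free of library size and scaling. The log2 ratio of Psmb8 to Psmb5 was 0.74, 1.83 and 1.88 in Atorvastatin, 2.24, 2.31 and 1.94 in Model, and 0.98, 1.39 and 0.33 in Normal. Model averaged 2.16 ± 0.20 and Normal 0.90 ± 0.53 (SD, n = 3 each), a 2.40-fold difference, with no overlap. The log2 ratio of Psmb9 to Psmb6 was -0.49, 0.81 and 0.73 in Atorvastatin, 0.77, 0.91 and 0.73 in Model, and -0.45, 0.14 and -0.74 in Normal. For this pair, too, the Model libraries lay above all Normal libraries, 2.23-fold on average. For Psmb10 and Psmb7 the log2 ratio was -0.20, 0.65 and 0.81 in Atorvastatin, 1.16, 1.15 and 0.18 in Model, and 0.10, 0.29 and 0.05 in Normal, where Model 3 fell among the Normal libraries. By the exact two-sided permutation test the Model against Normal differences had p = 0.1, 0.1 and 0.2 (n = 3 each), where 0.1 is the smallest p that 3 against 3 libraries can give. Adjusted over the 9 ratio comparisons these were 0.3, 0.3 and 0.45.

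**Figure D2:**
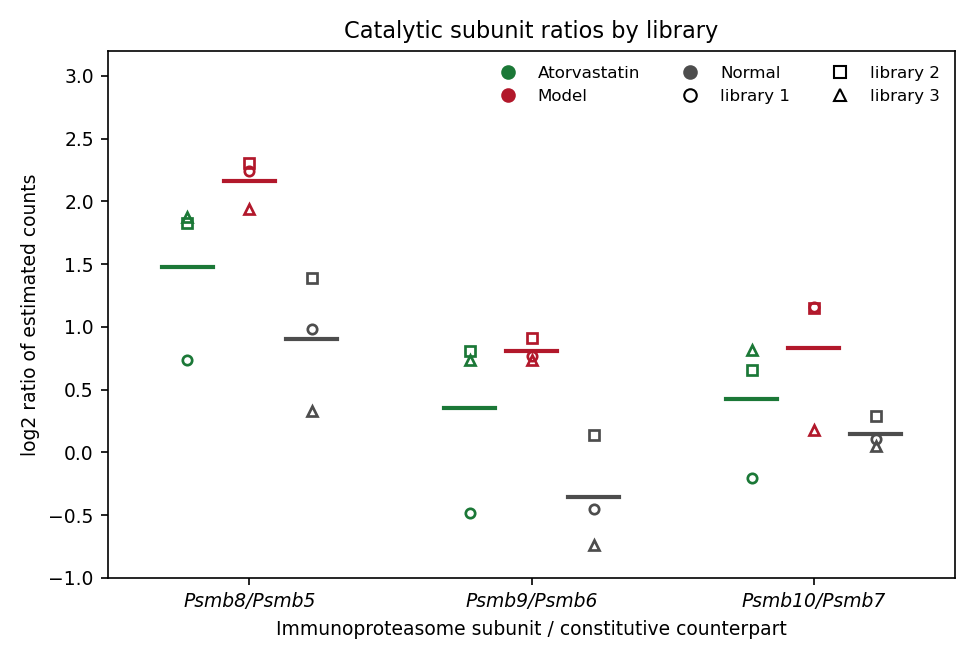
Each point is 1 library and each bar a group mean of the log2 ratio of estimated counts between an immunoproteasome subunit and the constitutive subunit it replaces. Only differences between libraries are to be read, since gene length enters the level of a ratio; Model lies above Normal without overlap for Psmb8/Psmb5 and Psmb9/Psmb6, and Atorvastatin library 1 lies apart from libraries 2 and 3 for each pair.

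In the contrast of Atorvastatin with Model, an effect of the statin and a lack of DSS cannot be told apart if the Atorvastatin mice were given none, which the labels leave unsaid. All 10 genes had a negative log2 fold change, from -0.31 for Psmb10 to -0.54 for B2m, with a median of -0.45 against -0.03 over all tested genes. None passed in edgeR's test (adjusted p = 0.460 to 0.679), none had an unadjusted p under 0.05, and DESeq2 and limma-voom called none, where they had 0.786% and 0% of all tested genes lower. Over all tested genes 0% passed in either direction in edgeR's test, with 962 (5.95%) higher and 946 (5.85%) lower at an unadjusted p under 0.05, while limma-voom called 0 and DESeq2 called 194 higher and 127 lower. The 3 Atorvastatin libraries lay below all Model libraries for 2 of the 10 genes, B2m and Tapbp, as did 7.7% of all tested genes (7.9% lay above). Atorvastatin 1 was the lowest of its group for each of the 10 genes, below Normal 1 and Normal 2 for each and below all Normal libraries for 4, H2-K1, H2-D1, Tap2 and Tapbp. The mean of Atorvastatin 2 and 3 was 1.62 times the level of Atorvastatin 1 for Psmb10 and 2.91 times for Tap2, with the other 8 genes between. The median log2 fold change against Model was -0.13 without Atorvastatin 1, -0.61 without Atorvastatin 2 and -0.63 without Atorvastatin 3. It was -0.37 without Model 2, -0.54 without Model 3 and -0.50 without both. The ratio of Psmb8 to Psmb5 was lower in all Atorvastatin than in all Model libraries (1.48 ± 0.64 against 2.16 ± 0.20 on the log2 scale; SD, n = 3 each; exact permutation p = 0.1, adjusted 0.3). This difference of -0.68 was -0.31 without Atorvastatin 1. The other ratios overlapped, with differences of -0.45 for Psmb9 to Psmb6 and -0.41 for Psmb10 to Psmb7 (exact permutation p = 0.5 for each, adjusted 0.5), which were -0.03 and -0.10 without Atorvastatin 1.

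In the contrast of Atorvastatin with Normal, effects of the statin, vehicle, days of gavage and any DSS cannot be told apart. The labels give vehicle for Normal alone and leave DSS in Atorvastatin unsaid. Against Normal, the Atorvastatin libraries had positive log2 fold changes for the 10 genes, from 0.24 for Tapbp to 0.79 for Tap1, with a median of 0.42 against 0.01 over all tested genes. None passed in edgeR's test (adjusted p = 0.303 to 0.758), nor in DESeq2 or limma-voom. Over all tested genes edgeR called 1.32% higher and 0.347% lower, DESeq2 4.42% higher and limma-voom 0.613% higher. At an unadjusted p under 0.05, edgeR had 2 of the 10 higher, Psmb8 and Psmb9, against 8.84% of all tested genes higher and 6.33% lower. Atorvastatin 2 and 3 both lay above every Normal library for each of the 10 genes, and with Atorvastatin 1 the groups overlapped for each, where 13.5% of all tested genes lay above and 11.2% below without overlap. The median was 0.68 without Atorvastatin 1, 0.24 without Atorvastatin 2, 0.28 without Atorvastatin 3, 0.64 without Normal 2 and 0.27 without Normal 3. Both contrasts of Model use the same Model libraries and both contrasts with Normal use the same Normal libraries, so their values are not independent.

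Other genes of the pathway were read from fixed lists in Model against Normal. Over all tested genes edgeR called 4.37% higher, and had 13.1% higher at an unadjusted p under 0.05. DESeq2 called 8.34% of all tested genes higher and limma-voom 3.43%. Of 14 tested heavy chains of nonclassical and class I-like molecules 1 rose and 13 did not pass, with 11 positive and a median log2 fold change of 0.55. At an unadjusted p under 0.05 edgeR had 7 of them higher, DESeq2 called 6 and limma-voom 1. The one that rose was H2-M2 (3.72, 3.16 and 3.34 CPM in Atorvastatin, 4.60, 4.19 and 7.82 CPM in Model, and 2.44, 1.67 and 2.17 CPM in Normal; difference of 1.40 ± 0.29 on the log2 scale, adjusted p = 0.0308). Cd1d1, which presents lipids, did not pass (1.30 ± 0.32, adjusted p = 0.0534). Of 8 genes of peptide loading and trimming 2 rose and 6 did not pass (median 0.24), with 2 called by DESeq2 and 1 by limma-voom. These were Lap3, a leucine aminopeptidase, with 143, 192 and 174 CPM in Atorvastatin, 211, 268 and 234 CPM in Model, and 139, 137 and 124 CPM in Normal (0.83 ± 0.14, adjusted p = 0.0145), and the tapasin-related editor Tapbpl (0.84 ± 0.19, adjusted p = 0.0408). Of 10 proteasome activators and assembly factors 1 rose, Psme2, a subunit of the activator that interferon gamma induces, with 150, 176 and 179 CPM in Atorvastatin, 197, 205 and 228 CPM in Model, and 151, 152 and 120 CPM in Normal (0.57 ± 0.13, adjusted p = 0.0412). Its partner Psme1 was at 0.65 ± 0.17 (adjusted p = 0.0671), and the list median was 0.04. DESeq2 called 2 of this list and limma-voom 1.

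None of the 3 constitutive catalytic subunits, the 11 other subunits of the core and the 18 subunits of the regulatory cap passed in edgeR's test, with 0, 2 and 0 higher at an unadjusted p under 0.05, and DESeq2 and limma-voom called none. Their median log2 fold changes were 0.02, 0.19 and 0.04. At that unadjusted limit 13.1% of all tested genes were higher. The core subunits nearest to passing were Psma5 (0.36 ± 0.14, adjusted p = 0.175) and Psmb1 (0.26 ± 0.12, adjusted p = 0.237), and those of the cap were the ubiquitin receptor Adrm1 (0.33 ± 0.15, adjusted p = 0.255) and Psmd3 (0.34 ± 0.16, adjusted p = 0.255).

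**Figure D3:**
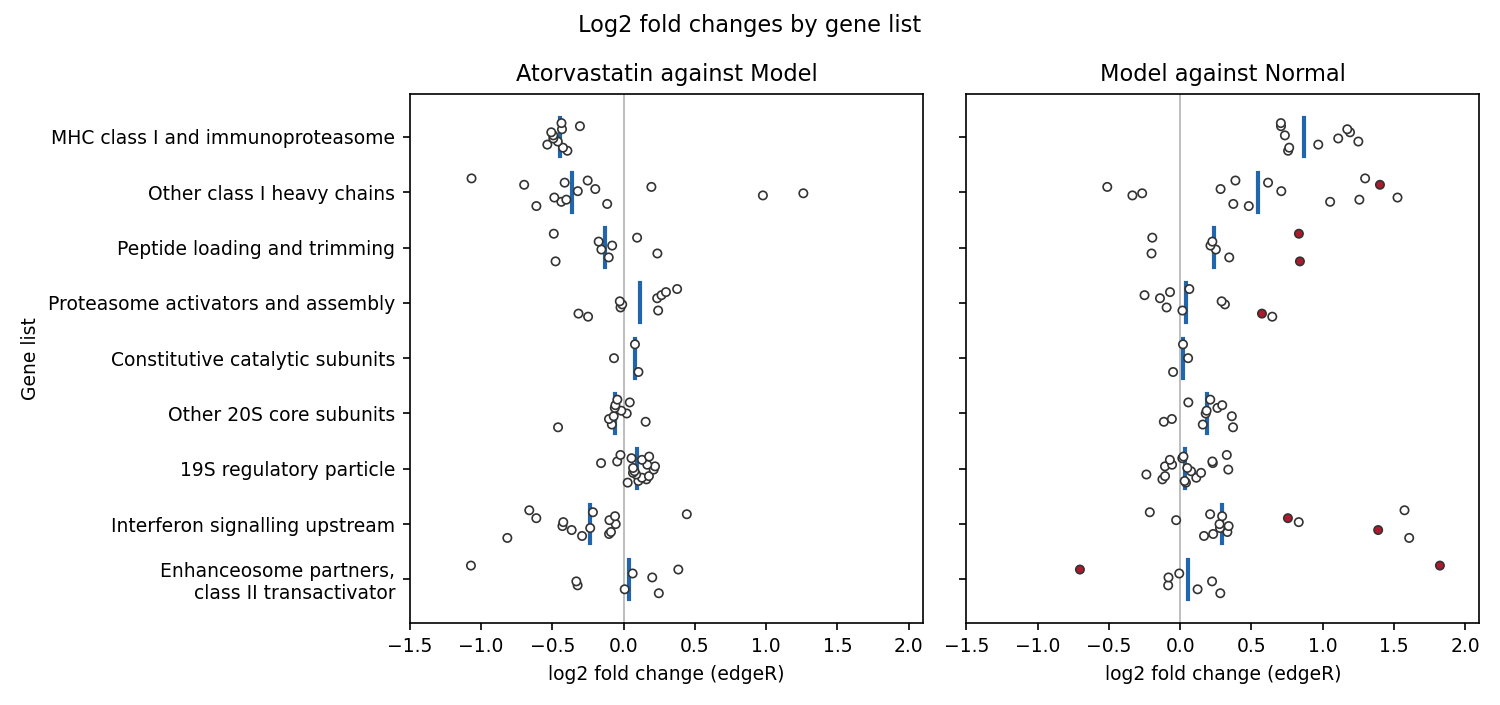
Each point is a tested gene of a list and each bar the list median; the horizontal axis is the log2 fold change fitted by edgeR, and filled red points passed the adjusted threshold. In Model against Normal the 10 genes lie between 0.71 and 1.25 while the constitutive catalytic subunits lie near 0, and in Atorvastatin against Model no point is filled.

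Upstream, 2 of 15 genes of interferon signalling rose in Model against Normal and 13 did not pass (median 0.29), with 3 called by DESeq2 and 2 by limma-voom. The shares of all tested genes called higher were 4.37% by edgeR, 8.34% by DESeq2 and 3.43% by limma-voom. Irf1, an interferon-induced transcription factor of the IRF family, had 331, 442 and 407 CPM in Atorvastatin, 637, 631 and 538 CPM in Model, and 334, 409 and 326 CPM in Normal. It rose by 0.76 ± 0.17 on the log2 scale (adjusted p = 0.0353). Ifnar2, a chain of the type I interferon receptor, had 18.9, 16.9 and 18.6 CPM in Atorvastatin, 24.1, 26.8 and 19.1 CPM in Model, and 10.96, 9.80 and 5.97 CPM in Normal, and rose as well (1.39 ± 0.23, adjusted p = 0.0137). Ifng itself was low, at 4 to 163 estimated counts per library. It had 0.773, 0.476 and 1.58 CPM in Atorvastatin, 1.92, 1.84 and 1.21 CPM in Model, and 0.525, 1.05 and 0.0514 CPM in Normal (1.61 ± 0.84, adjusted p = 0.317). All Model libraries lay above all Normal libraries for Ifng, as they did for 14% of all tested genes. Irf1 lost its call in Model against Normal under 11 of the 21 alternatives, with values between 0.66 and 0.87. For Irf1 the 3 Atorvastatin libraries overlapped those of Normal and lay below those of Model, without passing in edgeR's test (-0.61 ± 0.17, adjusted p = 0.323); DESeq2 gave an adjusted p of 0.0270.

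Among 8 partners of Nlrc5 at the promoter module and its class II relative, 1 rose and 1 fell in Model against Normal. By edgeR's test 4.37% of all tested genes rose and 1.1% fell. Ciita, the transactivator of class II genes, had 38.9, 66.9 and 93.3 CPM in Atorvastatin, 110, 179 and 129 CPM in Model, and 54.3, 43.4 and 20.6 CPM in Normal (1.82 ± 0.40, adjusted p = 0.0353). That call was lost under 8 of the 21 alternatives. Creb1, a factor of the CREB family that binds the X2 box, fell to 33.9, 31.6 and 26.9 CPM in Model, against 51.3, 49.6 and 49.7 CPM in Normal, with 42.9, 38.3 and 39.4 CPM in Atorvastatin (-0.70 ± 0.12 in Model against Normal, adjusted p = 0.0136). The median of the 8 was 0.06.

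In Model against Normal, 4 of 7 macrophage and dendritic cell markers and 3 of 4 neutrophil markers rose by edgeR's test. Over all tested genes edgeR had 4.37% higher and 13.1% at an unadjusted p under 0.05, DESeq2 8.34% and limma-voom 3.43%. In Atorvastatin against Normal edgeR called 2 of the 7, 2 of the 4 and also 2 of 4 fibroblast markers higher. The share of all tested genes there was 1.32%. In bulk tissue more cells of a type and more RNA per cell cannot be told apart. All markers were detected in at least 1 library. Summed over 4 genes of all leukocytes the level was 174 to 298 CPM in Atorvastatin, 250 to 337 CPM in Model and 82.5 to 270 CPM in Normal. The T and NK cell list of 10 genes summed to 94.8, 98.6 and 211 CPM in Atorvastatin, 168, 140 and 141 CPM in Model, and 96.7, 81.8 and 30.2 CPM in Normal. Of these lists, 0 of 4 and 0 of 10 genes passed in Model against Normal by edgeR's test, with 1 and 5 higher at an unadjusted p under 0.05, DESeq2 calling 1 and 3 and limma-voom 1 and 0. The nearest to passing were Laptm5 (1.195 ± 0.297, adjusted p = 0.0518) and Cd53 (0.72 ± 0.43, adjusted p = 0.376) of the leukocytes, and Cd4 (1.22 ± 0.35, adjusted p = 0.0792) and Nkg7 (1.29 ± 0.37, adjusted p = 0.0803) of the T and NK cells. Of 7 macrophage and dendritic cell genes 4 rose, with sums of 207, 246 and 294 CPM in Atorvastatin, 298 to 320 CPM in Model and 94.9 to 164 CPM in Normal. Among them were Csf1r, the receptor of a macrophage growth factor (1.38 ± 0.16, adjusted p = 0.00431), and the lysosomal protein Cd68 (1.70 ± 0.22, adjusted p = 0.00574). Of 4 neutrophil genes 3 rose, with sums of 18.9 to 77.4 CPM in Atorvastatin, 23.4 to 66.4 CPM in Model and 1.99 to 4.72 CPM in Normal. DESeq2 called 7 of the macrophage and dendritic cell genes and 4 of the neutrophil genes, and limma-voom 4 and 1. Of the 4 endothelial genes 1 rose in edgeR's test, with 4 called by DESeq2 and 1 by limma-voom, and of the 4 fibroblast genes 3 rose in each test. Of 4 B cell genes 0 passed in edgeR's test, with 0 at an unadjusted p under 0.05 and 0 by DESeq2 or limma-voom. All 4 had negative log2 fold changes (median -0.85), and their sums were 12.4 to 48.8 CPM in Atorvastatin, 10.9 to 82.8 CPM in Model and 19.5 to 150 CPM in Normal. Their part in the levels of the class I genes was not tested.

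Within the Atorvastatin group the 10 genes summed to 3369, 7083 and 6986 CPM. The leukocyte sums were 190, 174 and 298 CPM, lowest in Atorvastatin 2. The T and NK cell sums (94.8, 98.6 and 211 CPM) and the macrophage and dendritic cell sums (207, 246 and 294 CPM) were lowest in Atorvastatin 1, as were those of the 10 genes. Atorvastatin 1 had the highest neutrophil sum of all 9 libraries, 77.4 CPM. Its colon epithelial markers summed to 22762 CPM, the lowest of the 9. In Normal 1 to 3 the 10 genes summed to 4349, 5458 and 3474 CPM, and the leukocyte markers to 270, 160 and 82.5 CPM. Normal 3 was thus the lowest Normal library in both, and for each of the 10 genes. The highest differed, Normal 2 for the 10 genes and Normal 1 for the leukocyte markers.

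**Figure D4:**
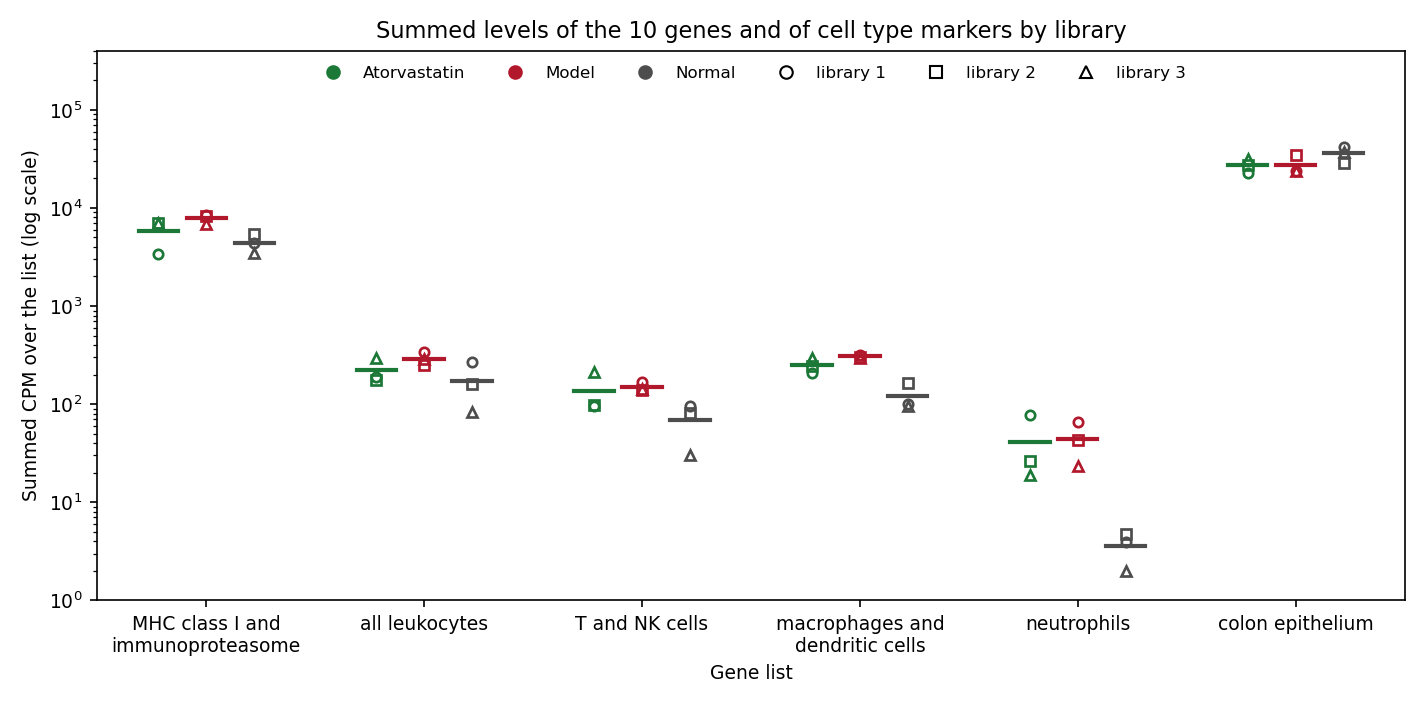
Each point is the CPM of 1 library summed over a list, on a log axis, with a bar at each group mean. The sum of the 10 genes is lowest in library 1 of the Atorvastatin group (3369 CPM), as are the sums of T and NK cell and of macrophage and dendritic cell markers, while the leukocyte sum is lowest in library 2 (174 CPM).

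The genes most like the 10 in their pattern over the 9 libraries were found by standardizing log2 CPM per gene and taking the mean absolute difference from the members' average profile. In that average Atorvastatin stood at -1.35, 0.53 and 0.63 SD, Model at 1.02, 1.11 and 0.44 SD, and Normal at -0.69, -0.27 and -1.41 SD. The members themselves differed from it by 0.11 SD for Psmb8 to 0.29 SD for B2m. The nearest genes outside the set were Otud5, a deubiquitinase (0.170 SD), Gm12216 (0.179), and the class I genes H2-Q6 (0.190) and H2-Q4 (0.191). Otud5, on chromosome X, had 67.0, 85.8 and 93.3 CPM in Atorvastatin, 93.3, 96.3 and 91.5 CPM in Model, and 74.3, 76.8 and 69.3 CPM in Normal, a narrower range than that of the members. H2-Q6 had 43.5, 105 and 123 CPM in Atorvastatin, 130, 131 and 99.6 CPM in Model, and 60.9, 63.7 and 25.9 CPM in Normal, and resembles its relatives in sequence. These 4 genes were chosen for their likeness to the members over the same libraries, so a similar pattern in them was built in. None of the 4 passed in Model against Normal by edgeR's test (adjusted p = 0.119 to 0.157). At an unadjusted p under 0.05 edgeR's test had 4 higher, while DESeq2 called 3 and limma-voom 0. The shares of all tested genes were 13.1%, 8.34% and 3.43%. Each had Atorvastatin 1 as the lowest library of its group.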

How the data were processed

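Per gene, the authors deposited an estimated count for each library, in whole numbers, with coordinates. The submitters' processing notes name bcl2fastq 2.0, HISAT2, StringTie and DESeq2, without roles, and the builds rn6 and mm39. The table names no build; none of the 10 genes has its GRCm38 coordinates, so mm39 is taken, and the GRCm38 references served for names, transcripts and promoters. Low values pile up at multiples of 4, so 1 read pair is about 4 counts.

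With R 4.3.3, edgeR 4.0.16, limma 3.58.1 and DESeq2 1.42.0, genes were filtered by filterByExpr, scaled by TMM and fitted to all 9 libraries with group as the only term. All comparisons were two-sided. The SE is the absolute log2 fold change divided by the square root of F. CPM uses TMM-scaled library sizes; likeness uses log2 CPM (prior count 2) of genes with at least 1 CPM. The script was tested on simulated data. SciPy 1.17.1 gave exact permutation tests and matplotlib 3.10.9 the figures. Named besides the 10 genes are the 3 constitutive subunits, Ifng, Irf1, Ciita, the 4 most like genes and the 2 genes of smallest p in Model against Normal of each list, except that marker lists other than leukocytes, T and NK cells and macrophages are given as counts and sums; H2-D1 to B2m, Patl2 and Zbtb22 were chosen after their values were seen. Members and lists were chosen with earlier results of these data known. H2-T10 was not analysed here, and 1 gene that this rule names is not reported here. Within groups, each pair of libraries differed by more than counting noise.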

Additional observations from a re-analysis of the deposited data

How the results depend on the processing

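The direction of each of the 10 genes in each comparison held under all 21 alternatives. The number of the 10 called higher in Model against Normal was 0 in most, 7 with DESeq2, 2 with only the 2 groups compared and 0 to 4 when 1 library was left out. Over all genes, 706 higher and 177 lower in Model against Normal became 1347 and 619 with DESeq2, 398 and 76 with only the 2 groups, 351 and 51 with the replicate block, 335 higher without Model 2 and 3 together, and 142 to 861 and 22 to 303 leaving out 1 library. For Atorvastatin against Normal, 214 higher and 56 lower became 715 and 341 with DESeq2, 89 and 15 with the replicate block, 388 higher with library size alone, 99 higher with limma-voom, and 12 to 304 and 5 to 78 leaving out 1 library. For Atorvastatin against Model, 0 became 194 higher and 127 lower with DESeq2 and 0 to 1 in each direction leaving out 1 library. The cause was not tested.

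The replicate numbers gave no sign of pairing the samples. Deviations of same-numbered libraries from their group means correlated at -0.28 to 0.23, and those of differently numbered libraries at -0.23 to 0.26. With the replicate block 0 of the 10 genes passed in any comparison, as in the main fit. The 10 genes whose Model and Normal libraries did not overlap became 9, without H2-D1, under DESeq2 size factors, upper-quartile scaling or library size alone, a use of these scalings that was added after seeing the data. The 2 below Model in Atorvastatin became 1 with upper-quartile scaling and 0 with library size alone, where Psmb10 was 1 gene above Normal. Library size alone moved the median of all genes in Atorvastatin against Model to 0.21 and that of the 10 to -0.22. Without Model 2 and 3 together, the median of the 10 in Model against Normal was 0.95; the lone Model library was assumed to vary like the other groups. The ratio differences kept their sign with 0.5 counts added and without any 1 library (Psmb8/Psmb5 in Model against Normal 0.98 to 1.51).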
